A study of Mus musculus with 2 samples.

Results

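The Reg genes encode small secreted lectins, proteins that bind sugars, and 5 of them were followed here through the mouse small intestine: Reg1, Reg3a, Reg3b, Reg3g and Reg4. They were taken by symbol as 5 rows of the 55357 genes in the deposited count tables. The data are droplet-based single-cell 3′ RNA counts of small intestinal epithelium, with 1 library per genotype. The study describes this epithelium as enriched for crypts. Adipfl/fl mice carry floxed alleles of the adiponectin gene Adipoq and no Cre, and Adipfl/flpVilli-CreT mice carry the same floxed alleles together with Cre under the villin promoter, which is active in intestinal epithelial cells and not in blood-derived cells. Per the study's methods and legends the mice were male littermates pooled into 1 sample per genotype. The labels name no treatment, and the background strain of the floxed mice is not given in the sources used here. A library of pooled animals gives no spread between mice, so no test between genotypes was possible, and every interval below is a 95% interval of counting error only.

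After removal of barcodes with 500 or fewer detected genes or with 25% or more mitochondrial UMIs (unique molecular identifiers, each marking 1 captured transcript), 3069 cells from Adipfl/fl mice with 25687687 UMIs and 5555 cells from Adipfl/flpVilli-CreT mice with 48895126 UMIs remained. Before the mitochondrial limit 7739 and 9818 barcodes had over 500 genes, so the limit removed a larger part of them in Adipfl/fl mice. The study reports more kept cells for both genotypes under the limits it states. The barcodes shared by both libraries among the kept cells numbered 3. Adipoq itself had 0 UMIs in the kept cells of both libraries and could not check the labels. Members made up 1.39% of all kept UMIs in Adipfl/fl mice and 1.59% in Adipfl/flpVilli-CreT mice. Cells were clustered without the 5 members and named "-like" from marker genes: the stem-like, transit-amplifying-like (TA-like), villus bottom-like, mid-villus-like and villus tip-like classes form the absorptive axis, and goblet-like, enteroendocrine-like and tuft-like cells the secretory side. The stem-like class carried 11 of 11 stem cell markers, together with 12 cycling, 5 Paneth cell and 5 fibroblast markers. The villus bottom-like cluster carried 7 of 12 markers. Mid-villus-like cluster 0, with 519 and 678 cells, carried 4 of 12, none of them among its 10 leading genes. The goblet-like cluster carried all 7 goblet markers together with 6 of 9 Paneth cell markers, and no cluster was Paneth-like. T cell-like cells, which should lack these lectins, served as the measure of free RNA in the droplets.

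Reg3b and Reg3g are antibacterial lectins that epithelial cells secrete into the lumen. Reg3g binds the peptidoglycan of Gram-positive bacteria and helps to keep bacteria away from the epithelial surface. Their transcription in the gut depends on bacterial colonization and on interleukin 22 acting through the factor STAT3. Reg1 is best known as a secretory protein of the exocrine pancreas. Reg4 is expressed in enteroendocrine cells and in secretory cells of the colonic crypt.

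Reg1, Reg3a, Reg3b and Reg3g lie side by side on chromosome 6 and Reg4 lies alone on chromosome 3. In GRCm38.p6 the family genes of the chromosome 6 locus span chr6:78370885-78468874, a stretch of 97.99 kb that holds 6 family genes including Reg2 and Reg3d. Reg3b (ENSMUSG00000071356) lies at chr6:78370885-78373466 on the plus strand, Reg3a (ENSMUSG00000079516) at chr6:78380709-78383839 on the plus strand, Reg1 (ENSMUSG00000059654) at chr6:78425983-78428668 on the plus strand and Reg3g (ENSMUSG00000030017) at chr6:78466269-78468874 on the minus strand. Reg4 (ENSMUSG00000027876) lies at chr3:98222138-98236748. Reg2 and Reg3d had 0 and 2 UMIs and 23 and 22 UMIs in the kept cells of the Adipfl/fl and Adipfl/flpVilli-CreT libraries and are not described further.

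Reg3b and Reg3g moved together through the classes described below, while Reg1 and Reg3a followed a steeper pattern. The 250 bases before the annotated start of these 4 members are therefore shown. They are RefSeq sequence of GRCm38.p6, written 5′ to 3′ on the strand of the gene, with motif matches on either strand in capitals. The TATA box was searched as TATAAA. The STAT motif was searched as TTCNNNGAA. The GATA motif was searched as GATAAG. Their positions are chr6:78370635-78370884 for Reg3b, chr6:78468875-78469124 for Reg3g, chr6:78425733-78425982 for Reg1 and chr6:78380459-78380708 for Reg3a.
Reg3b: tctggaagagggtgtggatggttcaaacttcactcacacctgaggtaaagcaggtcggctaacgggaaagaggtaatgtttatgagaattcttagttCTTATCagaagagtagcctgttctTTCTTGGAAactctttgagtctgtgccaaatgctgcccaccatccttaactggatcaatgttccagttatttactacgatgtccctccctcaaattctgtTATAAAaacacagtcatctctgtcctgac
Reg3g: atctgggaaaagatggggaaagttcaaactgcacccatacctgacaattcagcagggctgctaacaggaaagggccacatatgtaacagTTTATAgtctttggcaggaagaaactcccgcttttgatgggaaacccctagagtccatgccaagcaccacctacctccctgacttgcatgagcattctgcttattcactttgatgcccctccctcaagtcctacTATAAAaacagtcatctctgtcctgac
Reg1: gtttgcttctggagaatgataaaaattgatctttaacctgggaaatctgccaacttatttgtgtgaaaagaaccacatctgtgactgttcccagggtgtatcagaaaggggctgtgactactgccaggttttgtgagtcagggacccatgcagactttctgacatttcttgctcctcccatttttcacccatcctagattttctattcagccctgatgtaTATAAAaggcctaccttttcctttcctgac
Reg3a: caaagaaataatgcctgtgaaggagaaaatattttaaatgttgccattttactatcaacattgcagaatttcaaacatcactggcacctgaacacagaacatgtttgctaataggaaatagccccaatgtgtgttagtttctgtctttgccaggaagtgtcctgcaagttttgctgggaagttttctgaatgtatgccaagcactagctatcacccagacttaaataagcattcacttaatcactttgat

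TATAAA lay 29 to 24 bases before the start of Reg3b, 27 to 22 bases before Reg3g and 30 to 25 bases before Reg1, and 12.4% of 32851 promoters of the same length hold it on either strand. The STAT motif was found in the window of Reg3b, 129 to 121 bases before the start, and in none of the other 3 windows shown, with 7.02% of all promoters holding it. GATAAG was found in the window of Reg3b on the minus strand and in that of Reg4, and 6.55% of promoters hold it. The HNF4 motif, searched as CAAAGTNCA and present in 1.19% of promoters, was in none of the 5 members' windows. The windows of Reg3b and Reg3g were identical at 70.0% of 247 aligned bases with a longest shared run of 20 bases. Those of Reg3a and Reg3g were as alike, at 70.1% of 201 aligned bases with a longest run of 11. Between the transcripts of Reg3b and Reg3g 73.0% of 747 aligned bases were identical and the longest shared run was 35 bases, the longest among the members, over whole transcripts. The transcripts of Reg3a and Reg3b were identical at 74.1% of 767 aligned bases, with a longest run of 24. By percent identity Reg3b and Reg3g were therefore not set apart from Reg3a. How the 3′ ends that the reads cover compare was not measured.

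Reg3b was the most abundant member, and with Reg3g it was high in villus bottom-like and mid-villus-like cells and lower on both sides. Levels are given as CPM, a gene's UMIs per 1000000 UMIs of a class. Such 3′ UMI counts do not scale with transcript length. In Adipfl/fl mice Reg3b was at 1279 CPM (1211 to 1350) at the crypt base (stem-like), 5341 (5218 to 5466) in TA-like cells, 15208 at the villus bottom, 15525 in the mid-villus and 4852 (4779 to 4926) at the villus tip. In Adipfl/flpVilli-CreT mice the levels in the same order were 676 (646 to 707), 3995 (3922 to 4070), 15230, 20772 and 3057 (3019 to 3095) CPM. The level thus climbed from the crypt, peaked in the lower and middle villus and dropped at the tip in both libraries. Neighbouring classes differed beyond counting error at each step, although in Adipfl/fl mice the step from villus bottom-like to mid-villus-like cells was only 1.02-fold against 1.36-fold in Adipfl/flpVilli-CreT mice. T cell-like cells held 407 and 1510 CPM, and a single stem-like cell from Adipfl/fl mice held 582 of the 1326 Reg3b UMIs of its class, 43.9%.

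Reg3g followed Reg3b at a lower level and with a flatter slope. In Adipfl/fl mice it was at 805 CPM in the stem-like class, 2514 in the TA-like class and 5471, 6149 and 3317 from the bottom of the villus through its middle to its tip. In Adipfl/flpVilli-CreT mice the same classes had 482, 2165, 5688, 7266 and 2045 CPM. Both libraries had their highest Reg3g level in mid-villus-like cells, 1.12-fold and 1.28-fold above the villus bottom-like level. T cell-like cells held 194 and 537 CPM. The stem-like levels of both genes in Adipfl/flpVilli-CreT mice therefore lay below those of T cell-like cells in the same library, where T cell-like cells also held 4383 CPM of the enterocyte transcript Apoa1 against 973 in stem-like cells. Cluster 8 held 2269 of the 3028 T cell-like Reg3b UMIs there. Myeloid-like cells of that library held 1208 CPM of Reg3b and 924 of Reg3g, above the stem-like levels. For each gene, however, the richest of these 32 cells held most of the UMIs, 120 of 179 and 100 of 137. B or plasma-like cells held 361 and 115 CPM, below the stem-like levels, so the order depends on the class taken as background. The ratio of Reg3b to Reg3g UMIs was 1.40 in stem-like and 2.81 in T cell-like cells of that library, so the values do not settle how much of the stem-like level is free RNA.

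**Figure D1:**
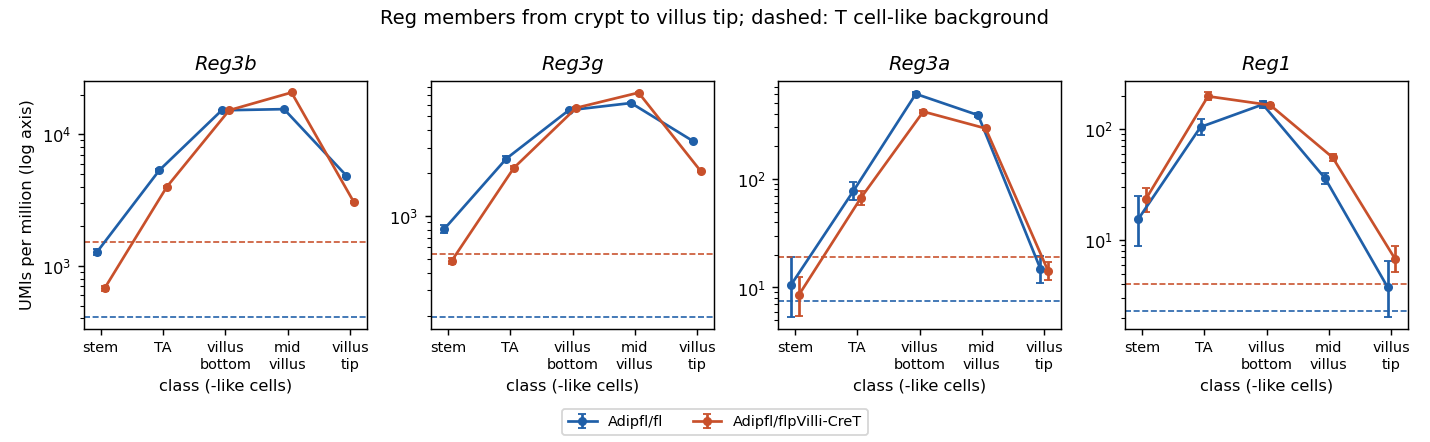
Level of Reg3b, Reg3g, Reg3a and Reg1 in CPM (log axis) over the 5 classes of the absorptive axis, for the library of Adipfl/fl mice and that of Adipfl/flpVilli-CreT mice. Bars are 95% Poisson intervals and dashed lines mark the level in T cell-like cells of each library. Reg3b and Reg3g are highest in villus bottom-like and mid-villus-like cells, while Reg3a and Reg1 drop to between 3.78 and 14.8 CPM in villus tip-like cells.

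Reg3a and Reg1 were low at the tip and at the crypt base. Reg3a, a lectin of the same subfamily as Reg3b and Reg3g, was at 10.6 CPM in the stem-like and 77.7 in the TA-like class of Adipfl/fl mice, and at 608 (587 to 629), 387 (373 to 401) and 14.8 (11.04 to 19.5) from the bottom of the villus through its middle to its tip. In Adipfl/flpVilli-CreT mice it was at 8.46, 67.1, 417 (406 to 430), 292 (283 to 301) and 14.3 (11.8 to 17.2) CPM. Both libraries had the peak one class lower than that of Reg3g, and the tip level was near the 7.43 and 18.9 CPM of T cell-like cells. Reg1 was at 15.4, 104, 167 (156 to 178), 35.9 and 3.78 (2.01 to 6.46) CPM along the same axis in Adipfl/fl mice. In Adipfl/flpVilli-CreT mice Reg1 was at 23.3, 197, 164 (157 to 172), 55.5 and 6.79 (5.11 to 8.84) CPM. The TA-like value of Adipfl/flpVilli-CreT mice rested on 1 cell with 397 of 559 UMIs. From the villus bottom to the tip Reg1 fell at each step in both libraries.

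Villus bottom-like cells exceeded villus tip-like cells for all 4 members that passed the minimum of 50 CPM in the higher class and 20 UMIs in all, in both libraries. Reg4 did not pass. Of 3633 genes over the same minimum in Adipfl/fl mice, 52.2% were also past 1.5-fold in this direction, and of 3670 genes in Adipfl/flpVilli-CreT mice 53.1%, so the count of 4 says little by itself, while the sizes differed. Reg1 was 44.1-fold higher (25.6 to 83.1) in villus bottom-like than tip-like cells of Adipfl/fl mice and 24.2-fold (18.5 to 32.2) in Adipfl/flpVilli-CreT mice. For Reg3a the folds were 41.0 (31.1 to 55.2) and 29.2 (24.2 to 35.4). These sizes depended on the processing. Over the alternatives with a defined fold Reg1 ranged from 17.3 to 110 and from 5.78 to 57.2 in the 2 libraries. Reg3a ranged from 12.4 to 81.2 and from 5.01 to 39.0. The Reg1 tip levels rested on 13 and 55 UMIs, with T cell-like cells at 2.29 and 3.99 CPM. In Adipfl/fl mice 69 genes had a larger fold than Reg1 and 74 a larger fold than Reg3a, and in Adipfl/flpVilli-CreT mice 148 and 109. Reg3b was 3.13-fold (3.08 to 3.19) and 4.98-fold (4.92 to 5.05) higher, and Reg3g 1.65-fold (1.61 to 1.69) and 2.78-fold (2.73 to 2.83). The median log2 fold over all these genes was 0.68 in Adipfl/fl and 0.72 in Adipfl/flpVilli-CreT mice, against 3.50 and 3.46 for the 4 members. Reg3g in Adipfl/fl mice, with a log2 fold of 0.72, was close to the median gene. At a mitochondrial limit of 10%, which left 29 and 66 villus tip-like cells, 2 of the 4 members were still called in Adipfl/fl mice, with a Reg3b fold of 1.27 and a Reg3g fold of 0.981, and the Reg3g fold there was also under 1.5 among cells with at least 1000 genes (1.24).

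The mitochondrial share of UMIs moved along the same axis. Its median was 6.71% and 5.85% at the bottom, 18.8% and 16.5% in the middle and 21.1% and 20.7% at the tip of the villus in Adipfl/fl and Adipfl/flpVilli-CreT mice. Within mid-villus-like cells of Adipfl/fl mice Reg3b went from 21358 CPM in the 176 cells under 10% mitochondrial UMIs to 7808 CPM in the 358 cells between 20% and 25%. At a matched mitochondrial share below 20% the slope of Reg3b in Adipfl/fl mice was smaller or absent. Under 10% mitochondrial UMIs the 171 villus bottom-like cells held 15733 CPM and the 11 villus tip-like cells 16445 CPM of Reg3b, and 5520 and 6592 CPM of Reg3g. From 10% to 15% the Reg3b levels were 11997 and 8227 CPM (38 and 93 cells), and from 15% to 20% 9710 and 4258 CPM (15 and 256 cells). In Adipfl/flpVilli-CreT mice the bottom exceeded the tip in each of these strata, at 15644 and 4947, 11138 and 3095, and 10075 and 2868 CPM. From 20% to 25% each library had only 2 villus bottom-like cells. They held 16039 CPM against 3923 at the tip in Adipfl/fl mice, and 9682 against 3100 in Adipfl/flpVilli-CreT mice. The part of the mitochondrial share in the slope was not tested beyond these values.

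A finer view ordered the 5975 enterocytes of the 3 villus classes by a score of 6 bottom and 6 tip landmark genes, none of them a Reg gene, and cut them into 5 bins of equal size. Reg3b in Adipfl/fl mice was at 17179, 14260, 7207, 6429 and 4191 CPM from the bottom bin to the tip bin. In Adipfl/flpVilli-CreT mice it was at 19678, 17514, 6776, 3277 and 2404 CPM. The level was therefore lower in each bin than in the one before it in both libraries, and ended lower in Adipfl/flpVilli-CreT mice. Reg3g was at 5786, 6016, 4881, 4250 and 3014 CPM in Adipfl/fl mice and at 6504, 7048, 4089, 2122 and 1762 CPM in Adipfl/flpVilli-CreT mice. It peaked in bin 2 in both. Median depth fell from 17337 and 17960 UMIs per cell in the bottom bin to 3554 and 3431 in the tip bin, and 772 cells had a score within 0.02 of the last cut.

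Reg3a and Reg1 left the villus earlier. Reg3a was at 646 and 445 CPM in bin 1, 301 and 192 in bin 2 and 34.8 and 22.4 in bin 3, in Adipfl/fl and Adipfl/flpVilli-CreT mice. In the last bin it held 11.7 and 11.4 CPM, within the range of T cell-like cells. Reg1 was at 124 and 129 CPM in the first bin and at 7.17 and 4.70 in the last.

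The ratio of Reg3b to Reg3g UMIs changed along the villus. It was 2.97, 2.37, 1.48, 1.51 and 1.39 over the 5 bins in Adipfl/fl mice and 3.03, 2.48, 1.66, 1.54 and 1.36 in Adipfl/flpVilli-CreT mice. Both genes have transcripts of similar length, 783 and 771 bases. By class the ratio was 1.59 and 1.40 in the stem-like class, 2.12 and 1.85 in the TA-like class, 2.78 and 2.68 at the bottom of the villus, 2.52 and 2.86 in its middle and 1.46 and 1.49 at its tip. The 2 transcripts thus stood nearer to each other at both ends of the axis than in the lower villus, with both libraries close to each other at every bin. They also stood nearer at a high mitochondrial share within 1 class. In mid-villus-like cells of Adipfl/fl mice Reg3b and Reg3g were at 21358 and 6801 CPM under 10% mitochondrial UMIs. Between 20% and 25% they were at 7808 and 4594 CPM. The part of the mitochondrial share in the ratio was not tested.

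**Figure D2:**
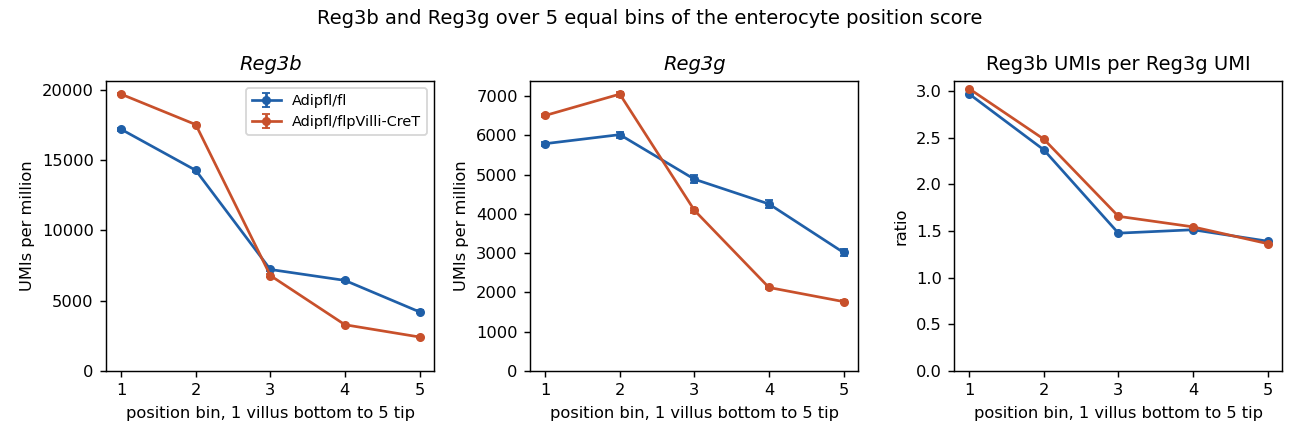
Level of Reg3b and of Reg3g in CPM and the ratio of their UMIs over 5 equal bins of enterocytes ordered by landmark genes from villus bottom to tip, for both libraries, with 95% intervals of counting error. The 2 libraries cross between bins 2 and 3 for both genes, while their ratios fall together from 2.97 and 3.03 to 1.39 and 1.36.

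Within the villus classes Reg3b and Reg3g were detected in most cells at a common depth and Reg1 in few. After each cell was thinned to 2000 UMIs, Reg3b was detected in 97.3% and 99.3% of cells at the villus bottom, 99.5% and 99.4% in its middle and 96.8% and 89.2% at its tip, in the libraries of Adipfl/fl and Adipfl/flpVilli-CreT mice. T cell-like cells, with median depths of 4585 and 4047 UMIs before thinning against 3537 and 3460 in villus tip-like cells, had shares of 42.4% and 48.1%. Reg3a was detected in 59.8% and 47.5% of villus bottom-like and 2.35% and 2.55% of villus tip-like cells, with T cell-like shares of 1.17% and 1.77%. The tip shares of Reg3a were thus little above that background. Reg1 was detected in 10.7% and 13.1% of villus bottom-like cells and 0.371% and 1.07% of villus tip-like cells, with T cell-like shares of 0.292% and 1.52%.

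Of the thinned Reg1 UMIs in villus bottom-like cells, the richest 10% of cells held 98.6% in Adipfl/fl and 90.1% in Adipfl/flpVilli-CreT mice. The same share was 25.8% and 27.7% for Reg3b, 26.7% and 23.3% for Reg3g and 39.3% and 40.1% for Reg3a. Thinning left only 70 and 131 Reg1 UMIs in these cells. Few cells had any, as given above, so the richest 10% had to hold most of them. Without thinning 31.9% and 39.4% of villus bottom-like cells held a Reg1 UMI. Cells with at least 5 Reg1 UMIs of 2000 numbered 5 of 2890 and 9 of 5259 over all classes and held 33.3% and 28.1% of all thinned Reg1 UMIs. Part of the Reg1 level thus lay in few cells, and its class levels depend on them. The thinned counts do not give the share of cells that express Reg1. Across villus bottom-like cells the Spearman correlation of thinned Reg3b and Reg3g counts was 0.682 over 224 cells of Adipfl/fl mice and 0.656 over 436 cells of Adipfl/flpVilli-CreT mice. For Reg3b and Reg1 it was -0.04 and 0.11 over the same cells. These cells share their library and the thinned depth, and the values are a description.

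Over the 11 named classes of both libraries, 22 points in all, the genes whose log2(CPM + 1) was most like that of Reg3b were Ckmt1 (Pearson r = 0.978), Ogdh (0.971) and Slc51a (0.969) among 7396 genes. Ckmt1 encodes a mitochondrial creatine kinase and was also one of the villus bottom markers, Ogdh a subunit of the oxoglutarate dehydrogenase complex and Slc51a a subunit of the basolateral bile acid exporter. Reg3b and Reg3g had r = 0.977 with each other. The genes most like Reg3g were Tm6sf2 (0.973), Ugt2b34 (0.971) and Hectd3 (0.968), those most like Reg3a were Cmbl (0.940), Arg2 (0.934) and Rdh7 (0.923), and those most like Reg1 were Ldha (0.913), Ces1f (0.907) and Otc (0.907). Arg2 encodes the mitochondrial arginase and Otc the ornithine transcarbamylase of the urea cycle. The points share libraries and, in part, free RNA, so these values are a description.

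Among secretory cells Reg3b was at 4358 CPM (4265 to 4454) and 6591 CPM (6508 to 6674) in goblet-like cells, 4640 and 4821 in tuft-like cells and 1381 and 3334 in enteroendocrine-like cells of Adipfl/fl and Adipfl/flpVilli-CreT mice. Reg3g was at 2237 and 2497 CPM in goblet-like, 1420 and 1920 in tuft-like and 748 and 1474 in enteroendocrine-like cells. These levels were below those of mid-villus-like cells, and in enteroendocrine-like cells 1 cell held 58.1% of the Reg3b UMIs in Adipfl/fl mice and 29.5% in Adipfl/flpVilli-CreT mice. Lyz1 encodes the lysozyme of Paneth cells, and the 7 and 23 cells in which it reached 5 UMIs had 4273 and 4416 CPM of Reg3b and 2014 and 1807 CPM of Reg3g. Of these cells 5 and 14 were goblet-like cells already counted above. In each library 1 of them held much of their Reg3b UMIs, 51.3% and 39.4%.

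Many secretory barcodes also held Apoa1, an apolipoprotein transcript of enterocytes. The secretory and T cell-like cells were therefore split at 5 Apoa1 UMIs of 2000. In goblet-like cells below that limit, 141 in Adipfl/fl and 192 in Adipfl/flpVilli-CreT mice, the mean was 3.33 and 2.85 Reg3b UMIs and 2.49 and 1.89 Reg3g UMIs per 2000. At or above the limit, in 74 and 196 goblet-like cells, the mean Reg3b count was 7.88 and 10.8. T cell-like cells below the limit, 310 and 318 cells, held 0.526 and 0.597 Reg3b UMIs and 0.174 and 0.160 Reg3g UMIs per 2000. The goblet-like means were thus above the T cell-like means on the same side of the limit. In villus bottom-like cells, where Reg3b was high, Apoa1 was at only 4615 and 4873 CPM, against 23706 and 20179 CPM in mid-villus-like cells. A low Apoa1 count therefore does not show that RNA of villus bottom-like cells is missing from a barcode. Enteroendocrine-like cells below the limit, 37 and 32 cells, held 0.568 and 0.438 Reg3b UMIs, close to the T cell-like values. Tuft-like cells below it, 55 and 41 cells, held 1.25 and 1.34. In enteroendocrine-like and tuft-like cells at or above the limit the Reg3b means were 4.73 and 7.95 and 9.73 and 11.95.

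**Figure D3:**
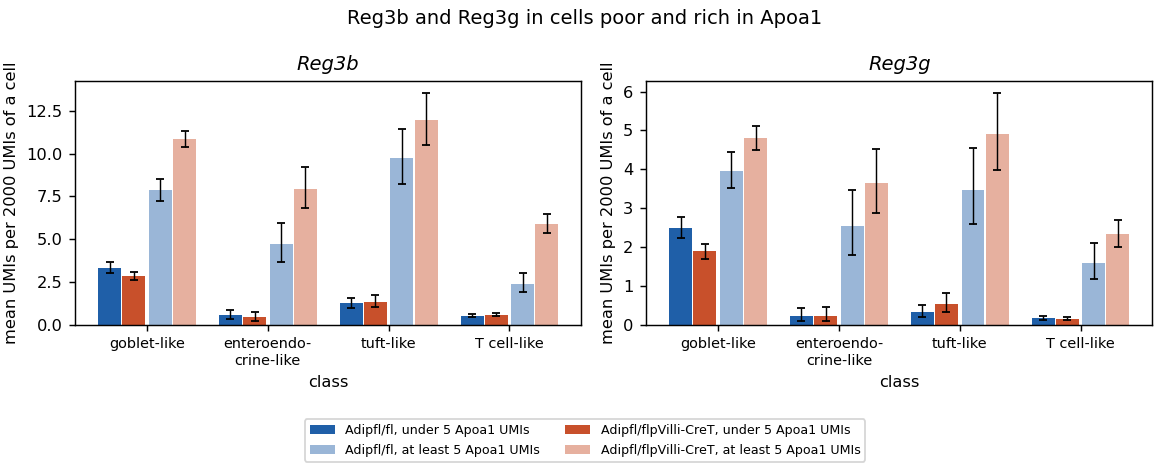
Mean UMIs of Reg3b and Reg3g per 2000 UMIs in goblet-like, enteroendocrine-like, tuft-like and T cell-like cells of both libraries, split by fewer than 5 or at least 5 Apoa1 UMIs of 2000. Error bars are 95% Poisson intervals of the summed counts. In cells under 5 Apoa1 UMIs, Reg3b stays at 3.33 and 2.85 in goblet-like cells and is between 0.438 and 0.597 in enteroendocrine-like and T cell-like cells.

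Reg4 was found almost entirely in 1 kind of enteroendocrine-like cell. Enteroendocrine-like cells held 8675 CPM (8390 to 8968) in Adipfl/fl and 12084 CPM in Adipfl/flpVilli-CreT mice, while its level in the other epithelial classes lay between 0.706 and 12.2 CPM where at least 1 UMI was found, and unnamed cells held 0.0552% and 4.78% of its UMIs. Of the 287 Reg4 UMIs of unnamed cluster 11 in Adipfl/flpVilli-CreT mice 286 lay in 1 cell. In Adipfl/fl mice 1 mid-villus-like cell held 83 of the 94 UMIs of its class. The enteroendocrine-like class was made of clusters 16 and 18, which carried 9 and 6 of 9 markers. Cluster 18, with 24 and 28 cells, held 96.4% and 92.9% of all Reg4 UMIs of its library at 20637 and 23311 CPM. Per cell its Reg4 counts had a lowest value of 0, a median of 59 and a highest value of 535 in Adipfl/fl mice, and a lowest value of 0, a median of 99.5 and a highest value of 1101 in Adipfl/flpVilli-CreT mice. At least 50 UMIs were found in 13 of 24 and 17 of 28 cells.

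Cluster 18 had 5034 and 4494 CPM of Tph1, the enzyme that starts serotonin synthesis in enterochromaffin cells, and 13494 and 11937 CPM of the granule gene Chga. Cluster 16, with 31 and 29 cells, had 0 and 3 Reg4 UMIs. Its hormone genes differed between the libraries, with Ghrl at 26407 and 499.6 CPM, Sst at 20712 and 1702, Gcg at 30.0 and 9434 and Cck at 5527 and 13152. At this depth Reg4 was therefore high in the cluster rich in Tph1 and at or near 0 in the other enteroendocrine-like cluster. Whether single cells held both transcripts was not measured. Over the 22 points, which merge both clusters, the genes most like Reg4 were Rbp4 (r = 0.956), Tac1 (0.955), the precursor of substance P, and Fxyd6 (0.955). Rbp4 was among the 10 leading genes of cluster 16, so a like pattern over classes is not shared expression in the same cells. In enteroendocrine-like cells Reg4 was 1.39-fold (1.34 to 1.45) as high in Adipfl/flpVilli-CreT as in Adipfl/fl mice, under the 1.5-fold limit. Within cluster 18 the fold was 1.13 (1.08 to 1.18). This cluster held 169257 of the 402645 UMIs of the class in Adipfl/fl mice. In Adipfl/flpVilli-CreT mice it held a larger part, 243189 of 469389, so the class fold also holds this shift in the mix of clusters.

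**Figure D4:**
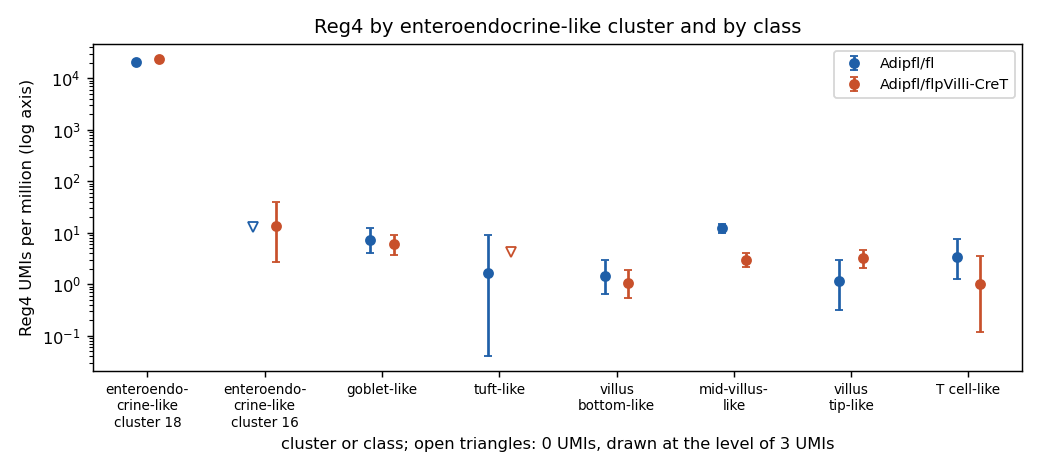
Level of Reg4 in CPM (log axis) in the enteroendocrine-like clusters 18 and 16 and in the other classes of both libraries, with 95% Poisson intervals. Open triangles mark 0 UMIs and are drawn at the level that 3 UMIs would give. Cluster 18 stands at 20637 and 23311 CPM, far above every other group.

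Between the libraries, the comparison of genotypes that the design implies, Reg3b and Reg3g stood lower at the villus tip of Adipfl/flpVilli-CreT mice and did not stand lower in the middle of the villus. With a change called when it passed 1.5-fold, 27 of 40 pairs of member and epithelial class were over the minimum level, 6 were higher and 5 lower in Adipfl/flpVilli-CreT mice. Among all genes the share past 1.5-fold differed by class, and each class is read against its own. In villus tip-like cells 1.48% of 2357 genes were called higher and 1.99% lower. Both members over the minimum there were called lower: Reg3b at 4852 and 3057 CPM, a fold of 0.630 (0.618 to 0.643), and Reg3g at 3317 and 2045 CPM, a fold of 0.617 (0.602 to 0.631). Only 29 genes had a smaller fold than Reg3b and 19 a smaller fold than Reg3g. Reg3a, below the minimum, was at 14.8 and 14.3 CPM, and Reg1 at 3.78 and 6.79 CPM with a fold of 1.80 (0.969 to 3.58).

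The villus tip-like class consisted of clusters 1, 2 and 3, and the libraries filled them unequally. Cluster 1 held 412 and 627 cells, cluster 2 221 and 764 cells and cluster 3 256 and 711 cells, so that cluster 1 was the largest part in Adipfl/fl mice and cluster 2 in Adipfl/flpVilli-CreT mice. Within them the Reg3b fold was 0.925 (0.896 to 0.956), 0.515 (0.500 to 0.531) and 0.543 (0.519 to 0.568), and the Reg3g fold 0.820, 0.533 and 0.572. All 6 values were below 1, with those of cluster 1 inside the 1.5-fold limit. By mitochondrial share the Reg3b fold was 0.376 in tip-like cells with 10% to 15% (93 and 189 cells), 0.673 with 15% to 20% (256 and 691 cells) and 0.790 with 20% to 25% (529 and 1199 cells). For Reg3g the folds were 0.452, 0.614 and 0.718. The direction was the same in each stratum, and the part of cell quality in the size was not tested. The Reg3b fold no longer passed the limit without a mitochondrial limit (0.789) or without the cells of highest Scrublet score, a doublet measure (0.720), and the Reg3g folds were then 0.766 and 0.679.

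None of the genes most like Reg3b and Reg3g passed 1.5-fold at the tip. In villus tip-like cells the fold was 0.887 (0.836 to 0.943) for Ckmt1, 1.01 for Ogdh and 1.07 for Slc51a. It was 0.947 for Tm6sf2, 1.13 (1.03 to 1.23) for Ugt2b34 and 0.807 (0.676 to 0.966) for Hectd3. Ckmt1 and Hectd3 were thus lower beyond counting error, by less than the Reg pair, and Ugt2b34 was higher. Apoa1 was at a fold of 0.935. In score bins 3 to 5 the Reg3b fold was 0.940, 0.510 and 0.574 and the Reg3g fold 0.838, 0.499 and 0.585. T cell-like cells went the other way, with a Reg3b fold of 3.71 and a Reg3g fold of 2.76 in Adipfl/flpVilli-CreT mice, where 7.57% of genes were called higher and 1.91% lower.

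Lower in the villus the pair was level or higher. In villus bottom-like cells the fold was 1.00 (0.993 to 1.01) for Reg3b and 1.04 (1.03 to 1.05) for Reg3g, with 0.883% of genes called higher and 0.274% lower in that class. In mid-villus-like cells it was 1.34 (1.33 to 1.35) for Reg3b and 1.18 (1.17 to 1.19) for Reg3g, where 0.995% of genes were called higher and 0.564% lower. Within mid-villus-like cells under 10% mitochondrial UMIs the Reg3b fold was 1.30, and it was 1.16, 1.06 and 1.09 in the strata above. For Reg3g the folds in the same strata were 1.24, 1.04, 0.998 and 0.998. In mid-villus-like clusters 0, 6 and 7 the Reg3b fold was 1.06, 1.21 and 1.33 and the Reg3g fold 0.981, 1.17 and 1.22. Cluster 0 held 519 of 886 cells in Adipfl/fl and 678 of 1433 in Adipfl/flpVilli-CreT mice. The class folds therefore also hold this shift in the mix of clusters. None of these passed 1.5-fold. Reg1 was called higher in mid-villus-like cells, at 35.9 and 55.5 CPM, a fold of 1.54 (1.35 to 1.78), which was 1.09 among cells with at least 1000 genes. It had a fold of 0.985 in villus bottom-like cells.

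Reg3a had lower values in Adipfl/flpVilli-CreT mice in the villus classes where it was expressed, but was not called. Its fold was 0.687 (0.657 to 0.718) in villus bottom-like and 0.755 in mid-villus-like cells. In villus bottom-like cells only 11 of 3285 genes had a smaller fold. By score bin the fold was 0.688, 0.640 and 0.645 in bins 1 to 3, past the limit in bin 2 and, at a level under 50 CPM, in bin 3. Reg3a was called lower in tuft-like cells, at 167 and 94.3 CPM, a fold of 0.566, where 6.96% of genes were called higher and 4.16% lower. This call rests on 103 and 66 UMIs, of which 1 cell held 27.2% and 34.8%, the share of tuft-like cells with a Reg3a UMI was 14.5% and 22.6%, and the fold was 0.732 as the mean of per-cell CPM.

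In the crypt, Reg3b and Reg3g were called lower in stem-like cells, with folds of 0.528 and 0.599 where 1.41% of genes were called higher and 1.71% lower. The class had 41 and 120 cells. In Adipfl/fl mice the richest cell held 43.9% of the Reg3b UMIs, and the richest for Reg3g held 26.9% of its UMIs. Over the processing alternatives the Reg3g fold was between 0.558 and 0.818. The Adipfl/flpVilli-CreT levels in this comparison are those below the T cell-like levels, and without the highest Scrublet scores the Reg3b fold was 1.09. In TA-like cells their folds were 0.748 and 0.861, with 1.77% of genes called higher and 0.671% lower. Reg1 was called higher in TA-like cells with a fold of 1.89, from the 1 cell named above and 0.718 without the richest cell, and in tuft-like cells with a fold of 2.77, where 1 cell held 45 of 47 UMIs. These calls rest on single cells.

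In goblet-like cells 8.38% of genes were called higher and 1.44% lower, and the median log2 fold of all genes was 0.11. Reg3b was called higher there with a fold of 1.51 (1.47 to 1.55), while Reg3g had a fold of 1.12 and Reg3a of 1.45. Apoa1 had a fold of 1.51 in goblet-like cells, and goblet-like cells under 5 Apoa1 UMIs of 2000 held fewer Reg3b UMIs in Adipfl/flpVilli-CreT mice, 2.85 against 3.33 per 2000. Slc51a, one of the genes most like Reg3b, was 2.02-fold higher in goblet-like and 3.23-fold higher in T cell-like cells. In enteroendocrine-like cells, where 15.2% of genes were called higher and 8.44% lower, Reg3b was called higher with a fold of 2.41 and Reg3g with 1.97, and Apoa1 had a fold of 1.93. The Reg3b fold was 1.51 in cluster 16, whose hormone genes differed between the libraries, and 7.31 in cluster 18, at 490 and 3586 CPM with 53.0% of the Adipfl/flpVilli-CreT UMIs in 1 cell. Apoa1 was thus also higher in both classes in which Reg3b was called higher, while Reg3g in goblet-like cells was at 1.12. The part of enterocyte RNA in these calls was not tested. At a mitochondrial limit of 10% the enteroendocrine-like folds were 0.704 for Reg3b and 0.744 for Reg3g.

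**Figure D5:**
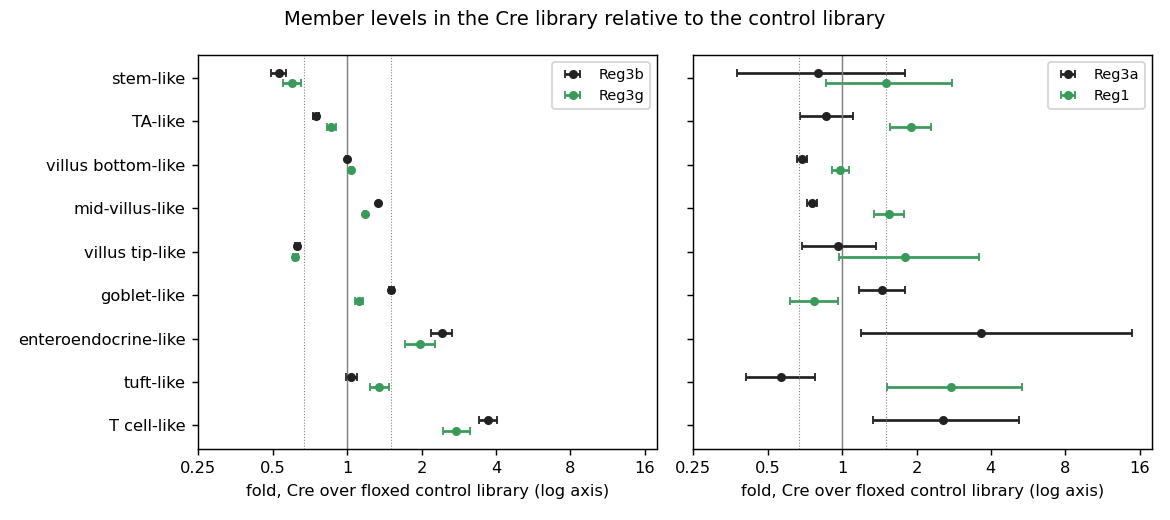
Fold of each member in Adipfl/flpVilli-CreT over Adipfl/fl mice by class (log axis), with 95% intervals of counting error, for members with at least 20 UMIs. Dotted lines mark 1.5-fold in either direction. In villus tip-like cells Reg3b (0.630) and Reg3g (0.617) are below the lower line, and in mid-villus-like cells both are above 1.

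Genes that act around the Reg lectins were taken as a list of 28: regulators such as Stat3 and Nfkbiz, epithelial defence genes, the candidate receptor Extl3 and the inducing cytokines. Between villus bottom-like and tip-like cells 10 of the 28 were over the minimum level in each library, 5 were called higher and 3 lower, with a median log2 fold of 0.47 in Adipfl/fl and 0.56 in Adipfl/flpVilli-CreT mice, against 0.68 and 0.72 for all genes. Of all genes 52.2% were called higher and 23.9% lower in Adipfl/fl mice, and 53.1% and 23.4% in Adipfl/flpVilli-CreT mice, so these counts are near those of all genes. The largest folds were those of Lypd8, a secreted protein that binds flagella, at 69.6 and 53.4, of the cytokine gene Il18 at 21.5 and 28.5, and of the mucosal scavenger Dmbt1 at 18.5 and 18.2. Dmbt1 was also a villus bottom marker in naming the class. The immunoglobulin transporter Pigr was 2.89-fold and 2.48-fold higher. Duox2, an oxidase that makes hydrogen peroxide, and its maturation factor Duoxa2 went the opposite way, 3.21-fold and 6.97-fold higher and 3.21-fold and 11.1-fold higher at the tip in Adipfl/fl and Adipfl/flpVilli-CreT mice.

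Between the libraries 8 genes of the list were over the minimum in villus tip-like cells, 3 were called higher and 0 lower. Of all genes there 1.48% were called higher and 1.99% lower. Duox2 was at 116 and 248 CPM, a fold of 2.13 (1.92 to 2.38), Duoxa2 at 60.2 and 153 CPM, a fold of 2.54 (2.19 to 2.96), and Lypd8 at 56.1 and 89.1 CPM, a fold of 1.59 (1.35 to 1.87). The genes called at the tip thus had folds in the opposite direction to those of Reg3b and Reg3g. T cell-like cells held 30.3 and 133 CPM of Lypd8, so its tip level in Adipfl/flpVilli-CreT mice lay below that background. The part of free RNA in the Lypd8 fold was not tested. In villus bottom-like and in mid-villus-like cells 7 genes each were over the minimum and 0 were called in either direction. In goblet-like cells 10 were over the minimum, with 3 called higher and 2 lower, among them Ang4 at a fold of 0.163 (0.119 to 0.220) and Lyz1 at 1.80 (1.53 to 2.12). Of all genes in goblet-like cells 8.38% were called higher and 1.44% lower. The goblet-like cluster carried Paneth cell markers as well. Unnamed cluster c2, with 0 and 55 cells, lay outside it and carried 12 cycling, 4 villus bottom, 4 Paneth cell and 3 goblet markers. The part of this split in the Ang4 and Lyz1 folds was not tested.

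The cytokine gene Il22 had 18 UMIs in 1 T cell-like cell of Adipfl/fl mice and 4 UMIs in 1 T cell-like cell of Adipfl/flpVilli-CreT mice. Il17a had 0 UMIs in Adipfl/fl and 29 in Adipfl/flpVilli-CreT mice, 28 of them in 1 T cell-like cell. Counts in so few cells show no difference between the libraries. The receptor gene Il22ra1 was at 30.5 and 30.7 CPM in villus tip-like and 4.59 and 3.11 CPM in villus bottom-like cells, below the minimum level in both.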

How the data were processed

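For each library the authors deposited raw UMI counts per gene and barcode, made with bcl2fastq 5.0.1 and Cell Ranger, whose version is 7.1.0 per the file headers and 7.0.0 per the methods, on mm10 per the submitters' processing notes, from the 10x 3′ V3 kit after dead cell removal, without normalization and before cell filtering. Here barcodes passed with over 500 genes and less than 25% mitochondrial UMIs, and were clustered in Seurat 5.3.0 under R 4.3.3 (LogNormalize, 2000 variable genes without the members, 20 components, resolution 0.8, crypt clusters split at 0.4), where the methods name Seurat 4.1.0. A class name needed at least 3 markers at 2-fold or more and 10 UMIs, so names may differ from the authors' annotation. Deposited counts were summed per class as CPM. Intervals are exact 95% Poisson, conditional binomial (folds) or Clopper-Pearson (shares) and cover counting error only. With 1 library per genotype there was no test, and called means past 1.5-fold with at least 50 CPM and 20 UMIs. Thinning to 2000 UMIs left out shallower cells. Median depth was 4838 and 4749 UMIs per cell.

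Doublets stayed in: among 3069 and 5555 cells Scrublet, run in scanpy 1.11.5, marked 3 and 3, too few for a working caller, and removing the 246 and 444 highest scores was an alternative. Members, gene lists and settings were chosen with earlier results of these data known. Genes named are the members, the 3 genes most like each in pattern, and up to 6 of a 28-gene list by fold. Apoa1, the enteroendocrine hormone genes, Il22, Il17a, Il22ra1 and Reg2 with Reg3d stand outside that selection by fold. Fold computation was tested on simulated data. Sequences came from RefSeq (GRCm38.p6), read with Biopython 1.88, and plots from matplotlib 3.10.9.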

Additional observations from a re-analysis of the deposited data

Results flagged for a closer look

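By class, the difference between the libraries in Reg3b and Reg3g changed side along the villus. In villus tip-like cells the fold of Adipfl/flpVilli-CreT over Adipfl/fl mice was 0.630 for Reg3b and 0.617 for Reg3g, and in mid-villus-like cells it was 1.34 and 1.18. By mid-villus-like cluster the Reg3b fold was between 1.06 and 1.33 and the Reg3g fold between 0.981 and 1.22. With 1 library per genotype the difference between these folds was not tested, since each genotype gives 1 value per class.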

How the results depend on the processing

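No paired analysis was possible because each genotype has 1 library. In villus tip-like cells the direction of the Reg3b and Reg3g folds was the same in 14 of 14 alternatives, with Reg3b from 0.348 to 0.789 and Reg3g from 0.483 to 0.766. Among these 14, the tip-like clusters at equal weight and the fifth score bin in place of the class were chosen after the data were seen. Over 8 epithelial classes the 6 pairs of member and class called higher became 2 without a mitochondrial limit, 3 with at least 1000 genes per cell and 2 with a 2-fold call. The 5 pairs called lower became 1 with the mean of per-cell CPM, 3 without the richest cell, 0 without the cells of highest Scrublet score and 0 with a 2-fold call. At a mitochondrial limit of 10%, which left 29 and 66 villus tip-like cells, 2 in place of 4 members were higher in villus bottom-like than tip-like cells of Adipfl/fl mice, the Reg3g fold there was 0.981, and the enteroendocrine-like folds between libraries were 0.704 for Reg3b and 0.744 for Reg3g. The Reg1 fold in TA-like cells was 0.718 without the richest cell, the Reg3b fold in stem-like cells was 1.09 without the highest Scrublet scores, and the Reg3b fold in goblet-like cells under 5 Apoa1 UMIs of 2000, an alternative chosen after the data were seen, was 0.857. The cause was not tested in these cases. The share of villus tip-like cells with a Reg3b UMI, 96.8% and 89.2% at 2000 UMIs, was 89.3% and 77.8% at 1000 UMIs and 98.8% and 95.2% without thinning. Of the alternatives for called member folds between libraries, including those chosen after the data were seen, 125 of 130 had the same direction and 98 were still called.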
